A study of Homo sapiens with 15 samples.

Results

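HaCaT cells are keratinocytes from human skin that keep dividing in culture without limit. The comparison described here sets HaCaT cells given Ag2S NPs at 320 μg/mL for 24 h (Ag2S NPs 320, called treated cells) against untreated HaCaT cells (control). It rests on 3 libraries of each group, 6 of the 15 libraries of the series, taken by their labels and by no measured value. The remaining 9 libraries were 3 each of cells given Ag2S NPs at 160 μg/mL, Li-doped Ag2S NPs at 160 μg/mL or Li-doped Ag2S NPs at 320 μg/mL, of which the first and the last were used for differences by dose and by particle. The particles are silver sulfide nanocrystals that emit near-infrared light, and according to the methods they were coated with 3-mercaptopropionic acid to be dispersed in water. All groups share the line and its medium with serum. The control is labelled as untreated, so the effects of the Ag2S core, of its coating and of the added fluid cannot be told apart. No source used here says whether the 3 libraries of a group are from separate cultures, and p-values thus cover only the spread between these libraries, which may be technical.

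Keratinocytes of the basal layer of the skin divide, carry KRT5 and KRT14 filaments and hold on to the basement membrane through laminins and integrins, and they leave that layer to build the cornified envelope. At the edge of a wound they switch on KRT6A, KRT16 and KRT17, move over a newly laid matrix and secrete proteases. TGF-β, a cytokine that acts through SMAD proteins, is known to stop the division of keratinocytes and to raise matrix genes. Metal ions that enter a cell are bound by metallothioneins, and silver in particular binds thiols. The question of the comparison was which genes of keratinocytes change after a day with a high dose of the undoped particle.

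The data are FPKM values, that is fragments counted per length of transcript and per size of the library, for 17246 genes in each library. The number of fragments behind them is unknown, and errors here are those between libraries. FPKM summed over genes to between 582451 and 623766 in treated libraries and to between 590451 and 601823 in control libraries. Pearson's r of log2(FPKM + 0.1) over the tested genes, which do not vary independently, lay between 0.985 and 0.987 within groups and between 0.928 and 0.935 between them. All 8 keratinocyte markers were above 1 FPKM in every library and summed to 13536 to 15089 FPKM in treated cells, against 10610 to 10902 FPKM in control. The fibroblast markers summed to 2.19 to 3.99 FPKM in treated cells, against 13.2 to 16.3 FPKM in control, and the endothelial markers to 0.32 to 0.62 FPKM, against 3.36 to 4.01 FPKM. The leukocyte markers summed to 18.4 to 22.0 FPKM in treated cells, against 11.1 to 12.3 FPKM in control, and the melanocyte markers to 2.09 to 3.11 FPKM, against 1.74 to 1.96 FPKM.

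The treatment shifted most of the expressed genes. Genes were tested with limma on log2(FPKM + 0.1), a scale on which changes of weakly expressed genes come out too small, and a gene was called changed at an adjusted p (Benjamini and Hochberg) under 0.05. Of 11925 genes that averaged at least 1 FPKM, 7116 changed (59.7%), of which 2114 rose (17.7%) and 5002 fell (41.9%). In all, 538 rose more than 2-fold (4.51%) and 786 fell more than 2-fold (6.59%), so that large falls outnumbered large rises only as deposited. For 7795 genes (65.4%) the treated and control libraries did not overlap, so a lack of overlap alone does not set a gene apart. Over all 11925 genes tested the log2 fold change had a median of -0.19. Scaling, which here means division of a library by the median of its ratios to the geometric mean of the 6 libraries, moved that median to -0.01 and the split to 3213 rises (26.9%) and 3030 falls (25.4%), of which 755 and 517 were over 2-fold. No gene was called in opposite directions before and after scaling. Scaling moves all genes by nearly the same amount, so such a reversal could hardly occur. Since the split depends on scaling, a list of genes is given with its counts and median both ways. The counts of each list are to be read beside the shares over all genes, 17.7% risen and 41.9% fallen as deposited. In bulk RNA, fewer cells of a kind and less of an RNA per cell cannot be told apart, and this holds for each result here.

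**Figure D1:**
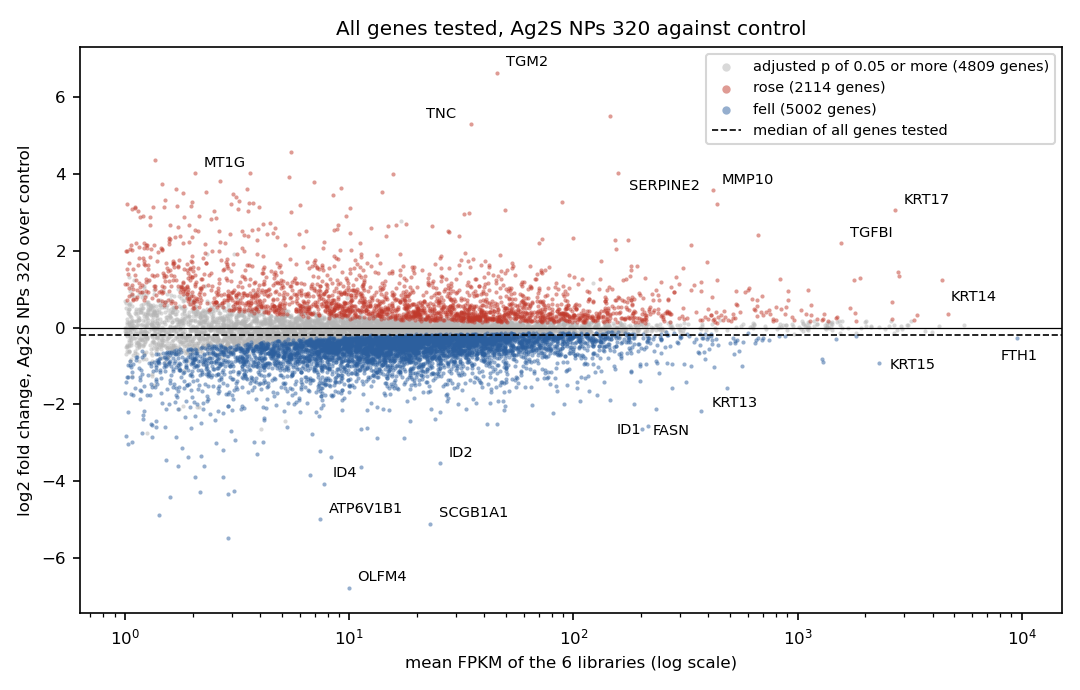
Each point is 1 of the 11925 genes tested, with the mean FPKM of the 6 libraries on the horizontal axis (log scale) and the log2 fold change of Ag2S NPs 320 over control on the vertical axis. The 2114 genes that rose are red, the 5002 that fell are blue, and the dashed line marks the median of all genes, -0.19.

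As deposited, the share of rises differed by the level of a gene in control. Among the 90 genes with at least 1000 FPKM in control, 22 rose and 6 fell, and among the 6551 genes between 10 and 100 FPKM, 966 rose and 3367 fell. Among the 226 genes below 1 FPKM in control, 171 rose and 0 fell, but these passed the filter only through their treated libraries. The 100 most abundant genes of each library took 32.4 to 35.0% of its FPKM in treated cells, against 30.1 to 30.9% in control. The keratin genes took 3.41 to 3.64% of the FPKM in treated cells, against 2.20 to 2.27% in control, and the ribosomal protein genes took 12.3 to 13.6%, against 12.5 to 12.9%.

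KRT17, a keratin of wounded skin, gained the most FPKM of all genes. Its libraries held 4451, 4856 and 5278 FPKM in treated cells, against 568, 578 and 615 FPKM in control (log2 fold change 3.05, SE 0.07, adjusted p = 4.62e-09). KRT14, the keratin of basal cells, came next with 5434, 6532 and 6626 FPKM in treated cells, against 2625, 2669.7 and 2610.2 FPKM in control (log2 fold change 1.23, SE 0.08, adjusted p = 1.44e-06). KRT5, its partner in the filament, held 4995, 5252 and 5435 FPKM in treated cells, against 4033, 4225 and 4126 FPKM in control (log2 fold change 0.34, SE 0.06, adjusted p = 0.000678). In each of these genes every treated library lay above every control library, and 65.4% of all genes tested had no overlap in 1 direction or the other. The gene of cytoplasmic actin ACTG1 held 4097 ± 187 FPKM in treated cells and 1499 ± 60.5 FPKM in control (SD, n = 3 libraries each), a 2.73-fold change, and ACTB held 2495 ± 37.8 FPKM in treated cells and 1061 ± 19.0 FPKM in control, a 2.35-fold change. The small heat shock protein gene HSPB1 averaged 4061 ± 498 FPKM in treated cells and 1598 ± 86.3 FPKM in control, and TGFBI, which encodes an adhesive matrix protein, averaged 2569.8 ± 61.6 FPKM in treated cells and 564 ± 3.64 FPKM in control. Other genes of this set were TMSB10 and TMSB4X, whose products bind actin monomers, with 2697 ± 314 and 3250.5 ± 127 FPKM in treated cells, against 1106 ± 44.5 and 2041 ± 114 FPKM in control. The largest losses of FPKM were those of FTH1, KRT15 and SCD. FTH1, the heavy chain of ferritin, held 8339, 8839.6 and 8939 FPKM in treated cells, against 10479.5, 10299.8 and 10499 FPKM in control, which is 0.835 times the control level and was not called after scaling. KRT15, a keratin of quiescent basal cells, held 1544, 1700.2 and 1548 FPKM in treated cells, against 3156, 3025 and 2923 FPKM in control (log2 fold change -0.93, SE 0.06, adjusted p = 1.37e-06). SCD, which puts double bonds into fatty acids, held 979, 920.3 and 834 FPKM in treated cells, against 1706, 1696 and 1664 FPKM in control (log2 fold change -0.89, SE 0.06, adjusted p = 2.51e-06). The reads of KRT14, KRT16 and KRT17 can be shared with near-identical copies of these genes, and those of ACTB and ACTG1 with each other, so the part of each gene is uncertain.

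**Figure D2:**
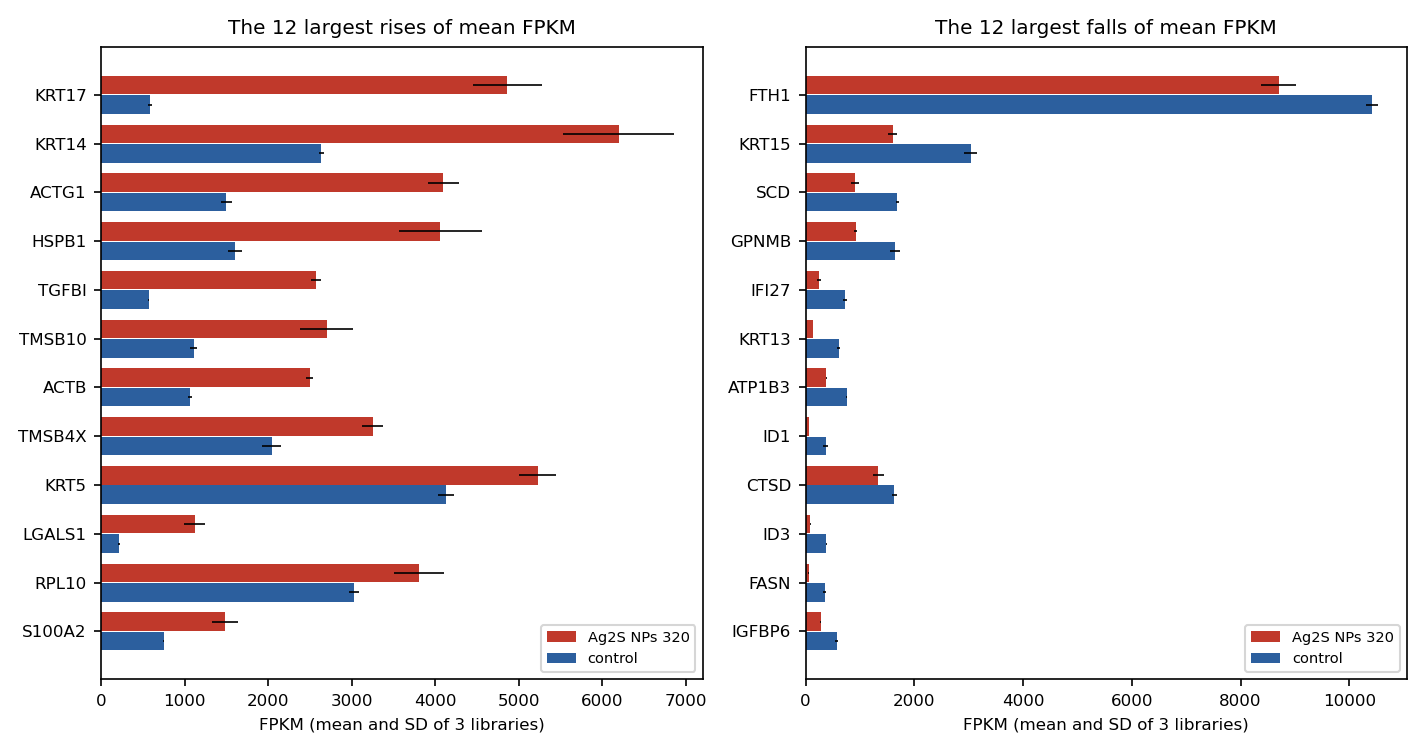
Bars give the mean FPKM of 3 libraries with its SD for Ag2S NPs 320 (red, upper bar) and control (blue, lower bar), for the 12 largest rises (left) and the 12 largest falls (right) of mean FPKM among changed genes. KRT17 stood at 4862 FPKM in treated cells, against 587 FPKM in control, and KRT15 at 1597 FPKM, against 3035 FPKM.

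TGM2 and TNC were among the largest rises on the log2 scale. TGM2, which encodes the tissue transglutaminase that cross-links proteins (GRCh38, chromosome 20, 38127387 to 38166578), held 91.0, 84.4 and 96.8 FPKM in treated cells, against 0.58, 0.84 and 1.11 FPKM in control (log2 fold change 6.63, SE 0.18, adjusted p = 1.36e-08). Its treated libraries were all far above its control libraries, a 108-fold change of mean FPKM. TNC, a matrix glycoprotein of healing wounds (chromosome 9, 115019578 to 115118257), held 72.7, 65.2 and 67.5 FPKM in treated cells, against 1.29, 1.37 and 2.53 FPKM in control (log2 fold change 5.29, SE 0.21, adjusted p = 8.55e-08). Both genes were low in every control library, with no overlap between the groups. L1CAM, a cell adhesion molecule known from neurons, held 11.7, 9.51 and 10.7 FPKM in treated cells, against 0.33, 0.24 and 0.55 FPKM in control. The tubulin gene TUBA1A held 25.8 ± 1.35 FPKM in treated cells and 2.15 ± 0.0153 FPKM in control (SD, n = 3 libraries each), and the protease inhibitor gene SERPINE2 held 299 ± 11.9 FPKM in treated cells and 18.4 ± 1.04 FPKM in control. FIBCD1, a receptor for acetylated sugars, averaged 6.56 ± 0.650 FPKM in treated cells and 0.463 ± 0.140 FPKM in control, and PADI3, an enzyme that converts arginine to citrulline in hair and skin proteins, averaged 15.6 ± 0.115 FPKM in treated cells and 1.35 ± 0.0819 FPKM in control. OLFM2 (3.98 on the log2 scale), FAM171A2 (4.01) and the retinol dehydrogenase gene RDH16 (3.77) belonged to the same set. TGM2, L1CAM, FIBCD1, FAM171A2 and RDH16 averaged below 1 FPKM in control. They thus passed the filter only through their treated libraries and could be called only as rises.

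Among genes with at least 5 FPKM in the higher group and no overlap, OLFM4, SCGB1A1 and ATP6V1B1 had the largest falls on the log2 scale, leaving aside PIGY, whose place depends on the added constant. OLFM4, a secreted glycoprotein (chromosome 13, 53028759 to 53052057), held 0.08, 0.09 and 0.08 FPKM in treated cells, against 20.7, 17.9 and 21.1 FPKM in control (log2 fold change -6.77, SE 0.19, adjusted p = 1.36e-08). SCGB1A1, a secretoglobin of the airway, held 1.16, 1.65 and 0.88 FPKM in treated cells, against 49.8, 35.4 and 49.1 FPKM in control (log2 fold change -5.10, SE 0.21, adjusted p = 1.14e-07). ATP6V1B1, a subunit of the proton pump found in acid-secreting cells (chromosome 2, 70935868 to 70965431), held 0.27, 0.30 and 0.54 FPKM in treated cells, against 12.6, 12.6 and 18.1 FPKM in control (log2 fold change -4.98, SE 0.25, adjusted p = 3.35e-07). All 3 genes were close to the lower end of the scale in each treated library. OLFM4 and ATP6V1B1, like other genes below 1 FPKM in treated cells, passed the filter only through their control libraries. They could be called only as falls. PIGY was listed at 0 in all 3 treated libraries, against 8.25, 7.79 and 1.24 FPKM in control, but its locus lies inside PYURF on chromosome 4, which held 47.4 ± 1.63 FPKM in treated cells and 49.7 ± 2.42 FPKM in control and was not called, so how reads were divided between the pair is uncertain. FOXA1, a transcription factor of glandular epithelia, averaged 1.62 ± 0.334 FPKM in treated cells and 21.0 ± 0.697 FPKM in control, and CALB1, a calcium-binding protein, averaged 0.213 ± 0.168 FPKM in treated cells and 5.54 ± 1.34 FPKM in control. ALPP, the placental alkaline phosphatase, averaged 1.39 ± 0.316 FPKM in treated cells and 15.3 ± 2.44 FPKM in control, and UBD, a ubiquitin-like protein raised by inflammatory cytokines, averaged 0.773 ± 0.0643 FPKM in treated cells and 6.72 ± 0.214 FPKM in control. LUM and DCN, proteoglycans used here as fibroblast markers, held 0.287 ± 0.204 and 0.640 ± 0.170 FPKM in treated cells, against 5.19 ± 0.756 and 7.08 ± 1.74 FPKM in control. TWIST2, the third fibroblast marker tested, held 2.03, 1.46 and 2.40 FPKM in treated cells, against 2.79, 2.38 and 1.16 FPKM in control and was not called. The fibroblast collagens COL1A2 and COL3A1 were below 0.1 FPKM in both groups. CDH5, used as an endothelial marker, held 0.0667 ± 0.0907 FPKM in treated cells, against 3.11 ± 0.282 FPKM in control.

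The keratins moved in both directions. In that list 8 rose and 6 fell of 16 tested, with a median log2 fold change of 0.11 (9 and 5, median 0.29, after scaling). KRT16, another keratin of wounded skin (chromosome 17, 41609778 to 41615899), held 147, 161 and 174 FPKM in treated cells, against 17.1, 18.0 and 15.2 FPKM in control (log2 fold change 3.25, SE 0.08, adjusted p = 8.43e-09), and KRT6A, the partner of both, held 1117, 1179 and 1255 FPKM in treated cells, against 467, 505 and 497 FPKM in control (log2 fold change 1.27, SE 0.06, adjusted p = 1.71e-07). KRT13 and KRT4, a pair from mucosal and fetal epithelium, fell together. KRT13 held 132, 139 and 131 FPKM in treated cells, against 576, 638 and 610.2 FPKM in control and KRT4 held 11.8, 10.6 and 11.8 FPKM in treated cells, against 41.5, 43.5 and 44.2 FPKM in control. KRT1, a keratin of the layers above the basal one, fell to 45.5 ± 1.08 FPKM in treated cells, against 84.5 ± 1.49 FPKM in control. KRT8 and KRT18, the pair of simple epithelium, did not pass the test (log2 fold changes 0.02 and -0.11).

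The genes of the cornified envelope divided between rises and falls. In that list 7 rose and 7 fell of 15 tested, with a median log2 fold change of 0.24 (7 and 5, median 0.42, after scaling), and the median was -0.45 over its members with a mean of at least 5 FPKM. SPRR1B, a small proline-rich envelope precursor, rose to 106 ± 7.52 FPKM in treated cells, against 39.7 ± 3.18 FPKM in control. PADI1, an epidermal arginine deiminase, averaged 5.47 ± 0.524 FPKM in treated cells and 1.31 ± 0.274 FPKM in control. Among the falls were TGM1, the transglutaminase that builds the envelope, with 29.5, 28.6 and 27.2 FPKM in treated cells, against 57.3, 63.7 and 54.1 FPKM in control, and SCEL, an envelope precursor, with 8.17, 9.09 and 8.06 FPKM in treated cells, against 29.2, 30.0 and 31.9 FPKM in control. IVL, involucrin, averaged 4.84 ± 0.196 FPKM in treated cells and 9.0 ± 0.682 FPKM in control. The 2 transglutaminases tested thus moved in opposite directions, TGM2 up and TGM1 down.

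Among the S100 proteins, small calcium binders of the epidermis, 4 rose and 4 fell of 12 tested, with a median log2 fold change of 0.13 (6 and 3, median 0.30, after scaling), and without replicate 8 of treated cells the median was -0.03. S100A2 gained the most, with 1483 ± 159.6 FPKM in treated cells and 746 ± 3.82 FPKM in control, followed by S100A10 (0.72) and S100A14 (0.60). S100A4 fell to 25.1, 27.1 and 25.3 FPKM in treated cells, against 104, 104 and 105 FPKM in control, and the antimicrobial S100A7 fell to 21.1 ± 3.06 FPKM, against 55.8 ± 0.854 FPKM. S100A8 and S100A9, which pair as calprotectin, moved apart, with log2 fold changes of 0.40 and -0.37. Among kallikreins and the inhibitors of skin serine proteases, 6 rose and 10 fell of 19 tested, with a median log2 fold change of -0.23 (7 and 8, median -0.05, after scaling). KLK5, which starts the kallikrein cascade of the stratum corneum, rose (0.97), and so did the inhibitor gene SERPINB7 (1.27). SERPINB3 and SERPINB4, neighbouring and closely similar inhibitor genes, held 24.9 ± 0.707 and 12.2 ± 0.384 FPKM in treated cells, against 78.3 ± 0.568 and 48.9 ± 1.91 FPKM in control. The proteases PRSS22 (-1.96) and KLK10 (-1.32) and the inhibitor of kallikreins SPINK5 (-1.21) fell.

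Most of the listed genes of basal cells, and most of those of laminins and integrins, rose. In the list of basal keratinocyte genes 10 rose and 2 fell of 13 tested, with a median log2 fold change of 0.49 (11 and 2, median 0.67, after scaling), and in that of laminins and integrins 17 rose and 3 fell of 21 tested, with a median log2 fold change of 0.49 (17 and 3, median 0.67, after scaling). Both lists hold ITGB1, ITGB4, ITGA6, BCAM and DST, so their counts are not independent. TP63, the transcription factor of basal cells, held 275, 254 and 239 FPKM in treated cells, against 97.4, 105 and 103 FPKM in control (log2 fold change 1.33, SE 0.06, adjusted p = 1.86e-07). Its groups did not overlap, as in 65.4% of all genes tested. LAMA3 and LAMB3 encode chains of the laminin under hemidesmosomes. LAMA3 held 304, 296 and 276 FPKM in treated cells, against 59.5, 58.5 and 61.8 FPKM in control (log2 fold change 2.28, SE 0.05, adjusted p = 4.8e-09), and LAMB3 averaged 1192 ± 21.7 FPKM in treated cells and 619 ± 10.9 FPKM in control. The integrin chains ITGB4 (0.71), ITGA6 (0.70) and ITGB1 (0.89) rose, as did ITGB6 (1.5), a chain of epithelia in repair. The opposite was measured for LAMB2 (-1.16), LAMA5 (-0.45) and ITGB8 (-1.11) of the laminins and integrins. In the basal list KRT15 (-0.93) was among the 2 falls, and the other fall was over 2-fold.

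Junction genes did not move as a group. In that list 12 rose and 14 fell of 31 tested, with a median log2 fold change of 0.05 (16 and 10, median 0.22, after scaling), so that rises outnumbered falls only after scaling. The gap junction genes GJB2 and GJB6, neighbours raised in wounds and psoriasis, stood highest. GJB2 held 90.4, 86.2 and 90.0 FPKM in treated cells, against 10.6, 9.88 and 11.4 FPKM in control (log2 fold change 3.06, SE 0.07, adjusted p = 4.68e-09), and GJB6 averaged 2.82 ± 0.140 FPKM in treated cells and 0.207 ± 0.112 FPKM in control. GJB6 passed the filter only through its treated libraries, so it could be called only as a rise. The desmosome gene PKP1 (0.94) and CTNNB1 (0.82), which encodes β-catenin, also rose. Tight junction genes stood on the other side, with falls of OCLN (-1.15), TJP3 (-1.15) and CLDN8 (-1.76). PLEKHA7, a protein of adherens junctions, fell the most, with 4.30, 4.06 and 4.01 FPKM in treated cells, against 30.1, 28.5 and 33.9 FPKM in control. Most actin and contractile genes rose. In that list 23 rose and 2 fell of 28 tested, with a median log2 fold change of 0.84 (25 and 1, median 1.02, after scaling). TPM1, a tropomyosin, held 112, 113 and 122 FPKM in treated cells, against 27.0, 23.6 and 25.2 FPKM in control (log2 fold change 2.19, SE 0.07, adjusted p = 1.54e-08), and the actin cross-linker FLNA held 598, 571 and 633 FPKM in treated cells, against 191, 177 and 189 FPKM in control (log2 fold change 1.69, SE 0.05, adjusted p = 2.69e-08). The muscle actin gene ACTA2 did not pass the test, with 5.90 ± 1.03 FPKM in treated cells and 4.26 ± 1.04 FPKM in control, and TPM2 fell (-0.69).

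Metallothioneins rose unevenly. Of 8 members in the table, 5 were expressed at a level that was tested, and 4 rose and 0 fell of 5 tested, with a median log2 fold change of 0.56 (5 and 0, median 0.73, after scaling). MT1X, on chromosome 16 from 56682424 to 56684196, held 662, 738 and 699 FPKM in treated cells, against 344, 362 and 376 FPKM in control (log2 fold change 0.96, SE 0.06, adjusted p = 8.53e-07). MT2A, the most abundant member, held 1269, 1342 and 1468 FPKM in treated cells, against 1352, 1362 and 1334 FPKM in control and was not called as deposited (log2 fold change 0.01). MT1G was low, with 3.59, 5.48 and 2.25 FPKM in treated cells, against 0, 1.03 and 0 FPKM in control, and since it was listed at 0 in a pair of control libraries its log2 fold change depends on the added constant and is not given. It passed the filter on mean FPKM only through its treated libraries, so it could count among the 4 rises but not as a fall. MT1F rose by less than 2-fold (0.56), and MT1E (0.20) was called with all 6 libraries but not without replicate 8 or 9 of treated cells or replicate 1 or 2 of control. Members of this family are so alike that reads can be divided between them in error. Their known regulator MTF1, which binds metal response elements, held 4.01 ± 0.0700 FPKM in treated cells and 4.86 ± 0.482 FPKM in control and was not called. Of the 5 tested members 2 matched a RefSeq promoter by symbol. The 250 bases before their start sites (GRCh38.p14) are shown because metal elements are the best known feature of these promoters, with matches to TGCNCNC or its reverse complement GNGNGCA in capitals. MT1X (chr16:56682220-56682469, plus strand) held 4 matches and MT2A (chr16:56608334-56608583, plus strand) held 7, and matches may overlap.
MT1X: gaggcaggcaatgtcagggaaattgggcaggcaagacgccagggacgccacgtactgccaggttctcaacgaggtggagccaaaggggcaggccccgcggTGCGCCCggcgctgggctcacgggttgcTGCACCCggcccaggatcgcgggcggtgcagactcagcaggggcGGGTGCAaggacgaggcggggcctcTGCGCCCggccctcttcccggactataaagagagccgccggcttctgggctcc
MT2A: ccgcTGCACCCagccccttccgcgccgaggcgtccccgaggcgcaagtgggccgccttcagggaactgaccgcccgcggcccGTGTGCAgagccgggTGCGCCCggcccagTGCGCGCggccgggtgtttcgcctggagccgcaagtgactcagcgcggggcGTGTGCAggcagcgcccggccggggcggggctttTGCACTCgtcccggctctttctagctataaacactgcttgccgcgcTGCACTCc
These letters are loose. They occur in 55.2% of all 27305 RefSeq promoter windows of 300 bases and in 63.4% of those of the 9515 tested genes that matched one, so a match describes the sequence and not a site.

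Among the carriers of zinc and copper, 6 rose and 8 fell of 24 tested, with a median log2 fold change of -0.20 (8 and 4, median -0.03, after scaling), and the median was 0.015 over members with a mean of at least 5 FPKM. Of all genes 17.7% rose and 41.9% fell as deposited, with a median of -0.19. The zinc importer gene SLC39A14 rose the most, with 53.8, 50.2 and 49.7 FPKM in treated cells, against 22.3, 20.3 and 21.9 FPKM in control (log2 fold change 1.25, SE 0.07, adjusted p = 4.05e-07). SLC39A4 (0.72), another zinc importer, and ATOX1 (0.39), a copper chaperone, rose by less than 2-fold. SLC31A1, the copper importer, which also carries silver ions, fell to 11.7, 9.88 and 10.6 FPKM in treated cells, against 16.6, 17.4 and 17.4 FPKM in control (log2 fold change -0.67, SE 0.09, adjusted p = 0.00016). COX17 (-0.68), which brings copper to the respiratory chain, and the zinc carriers SLC30A6 (-0.69) and SLC30A7 (-0.59) fell with it. Of the iron genes, 3 rose and 6 fell of 10 tested, with a median log2 fold change of -0.21 (4 and 3, median -0.03, after scaling). TFRC, the transferrin receptor, fell to 53.5 ± 4.58 FPKM in treated cells, against 91.7 ± 0.632 FPKM in control, and the metal reductase gene STEAP3 rose (0.75).

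Targets of NRF2, the factor that answers to oxidants and to agents that bind thiols, divided. In that list 9 rose and 7 fell of 26 tested, with a median log2 fold change of 0.03 (12 and 4, median 0.21, after scaling). SRXN1, sulfiredoxin, held 69.2, 69.1 and 70.7 FPKM in treated cells, against 34.1, 34.5 and 33.3 FPKM in control (log2 fold change 1.03, SE 0.05, adjusted p = 2.87e-07). NQO1 (0.81), a quinone reductase, and GCLM (0.69), a subunit of the enzyme that starts glutathione synthesis, rose as well. HMOX1, heme oxygenase, held 5.00, 5.25 and 7.34 FPKM in treated cells, against 3.42, 3.98 and 4.06 FPKM in control (log2 fold change 0.59, SE 0.17, adjusted p = 0.0139), a low level in both groups. On the other side stood AKR1C2 (-0.68) and PGD (-0.51), and TXNRD1, thioredoxin reductase, did not pass the test (-0.11). AKR1C1 and AKR1C2 are near-identical, so their reads may be divided in error. Heat shock genes did not move as a group, since 8 rose and 7 fell of 22 tested, with a median log2 fold change of -0.11 (10 and 1, median 0.07, after scaling). Among the rises were small heat shock genes. HSPB1 held 3591, 4009.9 and 4582 FPKM in treated cells, against 1664, 1629.6 and 1500.3 FPKM in control (log2 fold change 1.34, SE 0.09, adjusted p = 1.58e-06), and HSPB8 averaged 5.43 ± 0.343 FPKM in treated cells and 2.51 ± 0.434 FPKM in control. The inducible HSP70 genes HSPA1A (-0.30) and HSPA1B (-0.61), which are near-identical to each other, stood lower in treated cells, and HSPA1A was not called after scaling. DNAJB1, another target of heat shock factor, did not pass the test (-0.09).

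Most chaperones of the endoplasmic reticulum rose. Of the genes that belong to the unfolded protein response, 15 rose and 3 fell of 22 tested, with a median log2 fold change of 0.49 (18 and 0, median 0.67, after scaling). HSPA5, the main chaperone of the lumen (chromosome 9, 125234853 to 125241330), held 288, 295 and 309 FPKM in treated cells, against 124, 122 and 121 FPKM in control (log2 fold change 1.28, SE 0.05, adjusted p = 4.38e-08). SDF2L1, a partner of HSPA5, held 38.3, 38.9 and 46.9 FPKM in treated cells, against 16.4, 13.6 and 12.7 FPKM in control (log2 fold change 1.54, SE 0.11, adjusted p = 3.49e-06), and XBP1, a transcription factor of this response, held 69.8, 77.7 and 77.3 FPKM in treated cells, against 28.6, 24.9 and 26.2 FPKM in control (log2 fold change 1.49, SE 0.07, adjusted p = 2.34e-07). The groups did not overlap in any of the 3 genes, as in 65.4% of all genes tested. CALR (1.12), PDIA3 (0.98) and PDIA4 (0.90) followed. HERPUD1 (-0.30) and SEL1L (-0.31), which act in the disposal of misfolded proteins, and the stress sensor ATF6 (-0.34) fell as deposited, and none of these 3 was called after scaling. Of the 22 tested genes of the list 21 matched a RefSeq promoter, and 19 of them (90.5%) held CCAAT or its reverse complement ATTGG, the letters of the box bound by NF-Y, against 37.2% of the matched tested genes and 35.7% of all promoters. The 250 bases before the start of HSPA5 (chr9:125241344-125241593, minus strand) and of SDF2L1 (chr22:21642052-21642301, plus strand) are shown for the repeated box, in capitals, with 4 matches in each.
HSPA5: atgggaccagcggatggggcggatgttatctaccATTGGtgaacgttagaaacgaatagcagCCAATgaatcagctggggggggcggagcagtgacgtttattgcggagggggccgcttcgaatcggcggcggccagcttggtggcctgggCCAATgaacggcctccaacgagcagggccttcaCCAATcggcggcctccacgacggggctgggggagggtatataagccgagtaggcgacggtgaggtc
SDF2L1: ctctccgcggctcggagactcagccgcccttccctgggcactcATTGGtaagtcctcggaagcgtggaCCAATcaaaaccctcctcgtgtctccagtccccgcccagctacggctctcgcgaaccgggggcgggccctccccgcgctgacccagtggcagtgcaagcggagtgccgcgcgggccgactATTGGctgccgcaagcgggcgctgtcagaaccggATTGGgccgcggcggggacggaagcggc

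Targets of ATF4, the factor of the integrated stress response, had no common direction. In that list 7 rose and 9 fell of 21 tested, with a median log2 fold change of -0.18 (8 and 6, median -0.01, after scaling). ASNS, asparagine synthetase, held 17.9, 15.8 and 15.3 FPKM in treated cells, against 5.97, 7.70 and 7.2 FPKM in control (log2 fold change 1.22, SE 0.12, adjusted p = 2.09e-05), and the amino acid carrier gene SLC7A1 averaged 112 ± 5.79 FPKM in treated cells and 54.1 ± 1.2 FPKM in control. DDIT3, which encodes the stress factor CHOP, fell to 17.8, 20.2 and 21.6 FPKM in treated cells, against 30.7, 34.9 and 32.2 FPKM in control. NUPR1 (-1.94), ATF5 (-1.56) and SESN2 (-0.98) fell too. The enzymes of serine and one-carbon metabolism gave 2 rises and 7 falls among 10 tested and a median log2 fold change of -0.45 (3 and 5, median -0.27, after scaling), with PHGDH, the first enzyme of serine synthesis, at 165 ± 10.3 FPKM in treated cells and 236 ± 3.59 FPKM in control. Among tRNA synthetases, 3 rose and 9 fell of 20 tested, with a median log2 fold change of -0.18 (6 and 2, median 0.00, after scaling). As deposited these values were close to those of all genes, of which 17.7% rose and 41.9% fell, with a median of -0.19. WARS, which interferons also raise, stood apart with 61.1, 67.4 and 59.2 FPKM in treated cells, against 154, 157 and 147 FPKM in control.

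Every gene of mitosis tested fell. In that list 0 rose and 36 fell of 36 tested, with a median log2 fold change of -1.34 (0 and 36, median -1.16, after scaling). PLK1, a kinase that drives mitosis (chromosome 16, 23677656 to 23690367), held 22.3, 21.8 and 21.8 FPKM in treated cells, against 59.9, 63.5 and 59.8 FPKM in control (log2 fold change -1.47, SE 0.06, adjusted p = 6.85e-08). MKI67, the antigen of dividing cells, held 8.85, 7.25 and 6.61 FPKM in treated cells, against 26.7, 28.6 and 30.1 FPKM in control (log2 fold change -1.91, SE 0.11, adjusted p = 9.01e-07), and KIF20A, a kinesin of cell cleavage, averaged 12.2 ± 0.0757 FPKM in treated cells and 41.6 ± 1.03 FPKM in control. The groups did not overlap in any of these, as in 65.4% of all genes tested. PTTG1 (-0.59), CDC20 (-0.67) and UBE2C (-0.79), which act at the exit from mitosis, fell the least and were among the most abundant. Genes of DNA replication gave 0 rises and 37 falls among 39 tested and a median log2 fold change of -1.0 (0 and 34, median -0.83, after scaling), led by CLSPN (-1.91), a sensor of stalled forks, TYMS (-1.84), thymidylate synthase, and MCM5 (-1.67), a subunit of the replicative helicase. MCM5 held 10.1, 10.8 and 11.1 FPKM in treated cells, against 36.2, 31.4 and 35.4 FPKM in control. PCNA, the clamp of the polymerase, averaged 58.3 ± 3.0 FPKM in treated cells and 127 ± 1.91 FPKM in control. Histone genes of S phase gave 0 rises and 23 falls among 24 tested and a median log2 fold change of -2.14 (0 and 21, median -1.98, after scaling), and their copies are alike enough that single genes are uncertain. HIST1H2BK, the most abundant of them, averaged 36.2 ± 1.67 FPKM in treated cells and 145 ± 5.86 FPKM in control, and HIST1H3E averaged 1.39 ± 0.325 FPKM in treated cells and 13.4 ± 0.377 FPKM in control.

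The cyclins and inhibitors of G1 were mixed, with 2 rises and 13 falls among 21 tested and a median log2 fold change of -0.43 (4 and 13, median -0.25, after scaling). CDKN1A, which encodes the CDK inhibitor p21, held 190.0, 201 and 214 FPKM in treated cells, against 117, 124 and 117 FPKM in control (log2 fold change 0.76, SE 0.06, adjusted p = 3.83e-06), and CCND1, cyclin D1, averaged 101 ± 4.04 FPKM in treated cells and 71.9 ± 1.55 FPKM in control. The E2F genes E2F1 and E2F2 fell, with 0.923 ± 0.136 and 0.780 ± 0.131 FPKM in treated cells, against 3.74 ± 0.185 and 3.67 ± 0.164 FPKM in control. CCNE2 (-2.03), cyclin E2, and CDKN2C (-2.06), an inhibitor of CDK4 and CDK6, fell as well. MYC held 31.1, 26.6 and 29.6 FPKM in treated cells, against 41.1, 39.8 and 36.2 FPKM in control (log2 fold change -0.43, SE 0.08, adjusted p = 0.00124).

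Promoters of the mitotic genes shared letters. Such a share comes from the choice of genes for the list and not from their values in these libraries. The same holds for the promoter shares of the other lists. Of the 36 genes 30 matched a RefSeq promoter. CHR elements, TTTGAA or its reverse complement TTCAAA, where the DREAM complex and MuvB bind, were held by 21 (70.0%), against 9.4% of matched tested genes and 15.4% of all promoters. CCAAT or ATTGG was held by 24 (80.0%), against 37.2% and 35.7%. Both are shown in capitals in the 250 bases before the start of PLK1 (chr16:23678639-23678888, plus strand), with 2 matches, and of CCNB2 (chr15:59104896-59105145, plus strand), which encodes cyclin B2, with 5, and matches of both kinds may overlap.
PLK1: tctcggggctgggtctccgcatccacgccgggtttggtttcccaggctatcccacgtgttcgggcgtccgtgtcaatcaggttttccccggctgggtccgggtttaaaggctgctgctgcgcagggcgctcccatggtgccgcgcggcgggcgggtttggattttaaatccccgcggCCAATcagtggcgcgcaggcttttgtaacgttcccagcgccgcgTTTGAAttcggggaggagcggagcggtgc
CCNB2: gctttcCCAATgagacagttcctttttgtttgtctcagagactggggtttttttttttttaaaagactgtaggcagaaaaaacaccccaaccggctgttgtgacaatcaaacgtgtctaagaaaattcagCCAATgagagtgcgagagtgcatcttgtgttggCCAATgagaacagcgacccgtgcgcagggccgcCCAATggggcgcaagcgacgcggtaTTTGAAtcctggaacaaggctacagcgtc
CCNB2 held 34.4, 36.3 and 37.8 FPKM in treated cells, against 83.8, 77.9 and 79.9 FPKM in control (log2 fold change -1.15, SE 0.06, adjusted p = 3.21e-07). Of the replication genes 35 of 39 matched, and 14 of these (40.0%) held TTTNGCGC or its reverse complement GCGCNAAA, letters bound by E2F, against 3.1% of matched tested genes and 1.8% of all promoters.

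**Figure D3:**
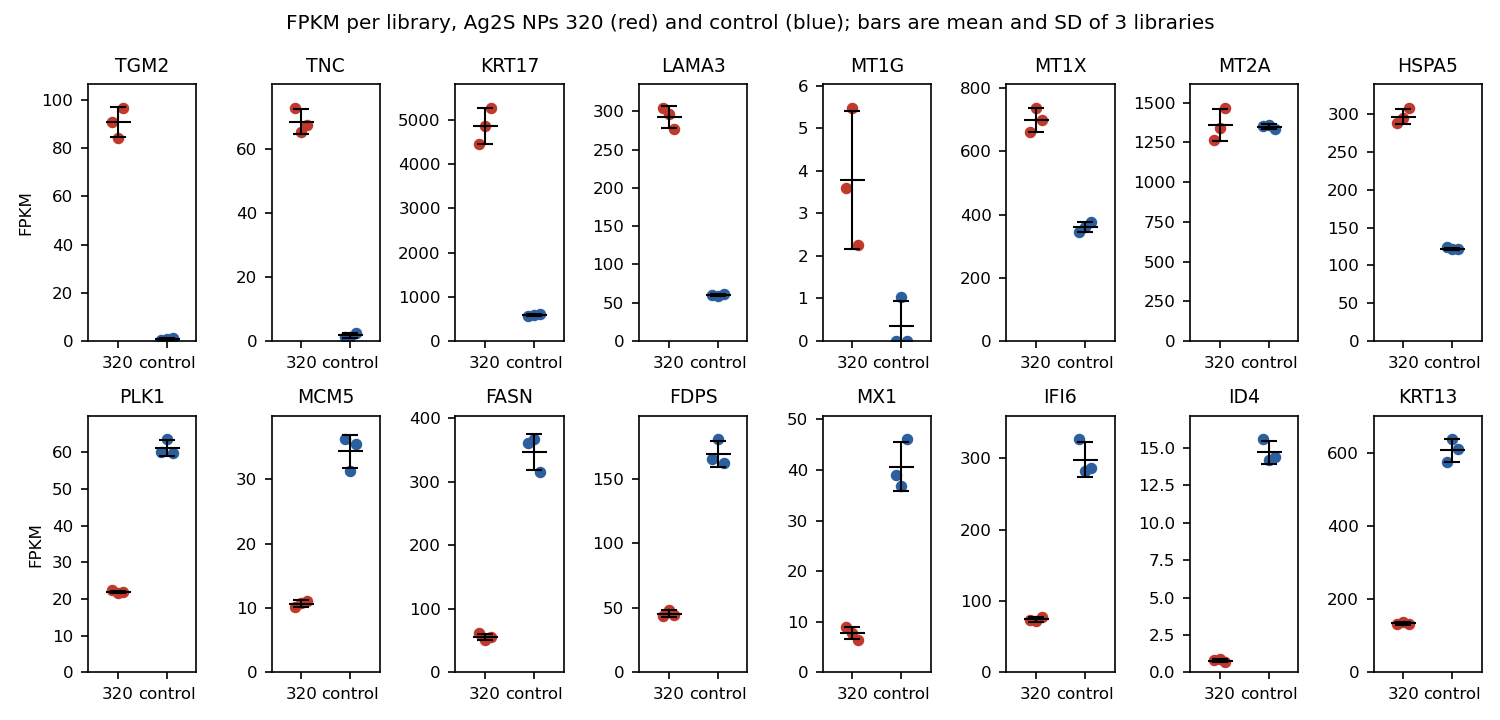
FPKM of 16 genes in each of the 3 libraries of Ag2S NPs 320 (red, left) and of control (blue, right), with the mean and SD as bars and each vertical axis starting at 0. TGM2 lay between 84.4 and 96.8 FPKM in treated libraries, against 0.58 to 1.11 FPKM in control libraries, and for MT2A the groups overlapped.

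Most genes that make cholesterol or fatty acids fell. The cholesterol list gave 1 rise and 23 falls among 25 tested and a median log2 fold change of -1.13 (2 and 22, median -0.95, after scaling). FDPS, farnesyl diphosphate synthase, held 43.4, 48.4 and 44.1 FPKM in treated cells, against 165, 181 and 162 FPKM in control (log2 fold change -1.90, SE 0.06, adjusted p = 3.16e-08), and MVK, mevalonate kinase, held 21.7, 22.7 and 25.4 FPKM in treated cells, against 76.8, 71.9 and 74.5 FPKM in control (log2 fold change -1.68, SE 0.07, adjusted p = 1.12e-07). In both genes the treated libraries lay below the control libraries. SREBF2, which encodes the transcription factor of these genes, changed less (-0.23) and was not called after scaling. The fatty acid list gave 2 rises and 11 falls among 18 tested and a median log2 fold change of -0.72 (2 and 10, median -0.54, after scaling). FASN, fatty acid synthase (chromosome 17, 82078333 to 82098332), held 61.4, 50.8 and 55.1 FPKM in treated cells, against 361, 367 and 315 FPKM in control (log2 fold change -2.64, SE 0.08, adjusted p = 2e-08), ACSL1, which activates fatty acids, averaged 8.66 ± 0.511 FPKM in treated cells and 37.7 ± 1.12 FPKM in control, and ACLY, which supplies acetyl-CoA, averaged 30.5 ± 2.1 FPKM in treated cells and 79.2 ± 1.35 FPKM in control. FADS3, a relative of the desaturases, rose (1.18).

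Most interferon-stimulated genes fell. In that list 2 rose and 32 fell of 41 tested, with a median log2 fold change of -1.2 (4 and 32, median -1.02, after scaling). MX1, an antiviral GTPase (chromosome 21, 41420304 to 41459214), held 8.97, 7.86 and 6.47 FPKM in treated cells, against 39.0, 36.8 and 46.1 FPKM in control (log2 fold change -2.38, SE 0.13, adjusted p = 4.85e-07). IFI6 held 73.6, 71.6 and 77.8 FPKM in treated cells, against 326, 282 and 286 FPKM in control (log2 fold change -2.0, SE 0.07, adjusted p = 2.94e-08), and IFI44L held 1.22, 1.46 and 0.22 FPKM in treated cells, against 14.3, 11.3 and 11.5 FPKM in control (log2 fold change -3.83, SE 0.50, adjusted p = 0.000149, or a log2 fold change of -3.11 without replicate 9 of treated cells). The groups were far apart in each. The 2 genes that rose were RSAD2, viperin (0.40), and OASL (0.38). IFIT1, which binds viral RNA, averaged 26.2 ± 0.410 FPKM in treated cells and 69.8 ± 5.80 FPKM in control. Of sensors and signal factors, 5 rose and 16 fell of 26 tested, with a median log2 fold change of -0.48 (7 and 15, median -0.30, after scaling). IRF7 held 19.5, 17.2 and 21.0 FPKM in treated cells, against 88.1, 75 and 75.7 FPKM in control (log2 fold change -2.04, SE 0.09, adjusted p = 1.53e-07), and IRF9 (-1.53), which carries the signal of the interferon receptor, fell with it. IFNAR2, a chain of that receptor, rose (0.94). Interferon letters, GAAANNGAA or their reverse complement TTCNNTTTC, were held by 25 of the 34 promoters matched to 41 listed genes (73.5%), against 6.5% of matched tested genes and 8.3% of all promoters. They are in capitals in the 250 bases before IFI6 (chr1:27672193-27672442, minus strand), with 3 matches, and before IFIT1 (chr10:89392373-89392622, plus strand), with 2, and neighbouring matches may overlap.
IFI6: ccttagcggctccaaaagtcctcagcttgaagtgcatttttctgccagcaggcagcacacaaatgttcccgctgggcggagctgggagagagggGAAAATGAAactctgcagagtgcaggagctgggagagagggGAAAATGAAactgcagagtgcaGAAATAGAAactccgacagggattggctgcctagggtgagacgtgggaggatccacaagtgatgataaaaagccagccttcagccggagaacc
IFIT1: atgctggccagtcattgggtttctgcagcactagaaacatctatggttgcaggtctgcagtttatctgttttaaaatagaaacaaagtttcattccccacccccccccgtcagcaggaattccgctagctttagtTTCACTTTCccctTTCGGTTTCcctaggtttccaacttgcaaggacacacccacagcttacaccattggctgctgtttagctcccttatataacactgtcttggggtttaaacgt

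Genes of antigen presentation changed less, with 1 rise and 13 falls among 22 tested and a median log2 fold change of -0.22 (4 and 7, median -0.04, after scaling). B2M, the light chain of MHC class I, held 3580.2 ± 201 FPKM in treated cells and 3825 ± 233 FPKM in control and was not called, HLA-E rose (0.38), and PSMB10, a subunit of the immunoproteasome, fell to 27.6, 30.7 and 26.1 FPKM in treated cells, against 89.2, 77.6 and 81.0 FPKM in control. Of cytokines and targets of NF-kB, 7 rose and 12 fell of 24 tested, with a median log2 fold change of -0.18 (8 and 10, median -0.01, after scaling). IL1A and IL1B, the interleukins that keratinocytes release when injured, both rose. IL1A held 9.93, 10.7 and 8.88 FPKM in treated cells, against 1.1, 1.19 and 1.15 FPKM in control (log2 fold change 2.99, SE 0.15, adjusted p = 2.81e-07), and IL1B held 16.6, 17.9 and 16.9 FPKM in treated cells, against 2.98, 2.71 and 3.57 FPKM in control (log2 fold change 2.44, SE 0.12, adjusted p = 3.13e-07). IL6 (1.41) and TNFAIP3 (1.12), an inhibitor of NF-kB, rose too. The chemokine genes CXCL8 (-1.53) and CCL20 (-2.83, or -2.13 without replicate 8 of treated cells), the acute phase gene SAA2 (-1.49) and ICAM1 (-1.35) fell. The macrophage marker CD68 held 18.3 ± 1.90 FPKM in treated cells, against 10.3 ± 0.709 FPKM in control. The monocyte marker CD14 held 0.80, 1.66 and 1.68 FPKM in treated cells, against 1.32, 1.36 and 1.0 FPKM in control and was not called, CD3E and CSF1R were below 1 FPKM in both groups, and the part of other cells in these values was not tested.

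Most TGF-β targets and collagen chains rose. The study named TGFB1, TIMP1 and COL1A1 as its genes of interest. By real-time PCR in HaCaT cells it reported a rise of TIMP1 alone with Ag2S NPs, and of all 3 with Li-doped Ag2S NPs. The values below are from RNA sequencing, a different measure. TGFB1, the cytokine gene, held 49.6, 50.3 and 53.9 FPKM in treated cells, against 25.4, 24.6 and 22.7 FPKM in control (log2 fold change 1.08, SE 0.07, adjusted p = 1.26e-06). TIMP1, an inhibitor of metalloproteinases, held 110.5, 128 and 125 FPKM in treated cells, against 63.1, 64.1 and 72.8 FPKM in control (log2 fold change 0.86, SE 0.07, adjusted p = 1.11e-05). COL1A1, the α1 chain of type I collagen, held 42.7, 38.6 and 40.2 FPKM in treated cells, against 6.70, 7.01 and 5.54 FPKM in control (log2 fold change 2.65, SE 0.10, adjusted p = 6.28e-08). COL1A2, the partner chain, was at 0.0067 ± 0.0115 FPKM in treated cells and 0.03 ± 0.0520 FPKM in control. In none of the 3 genes of interest did the groups overlap, as in 65.4% of all genes tested. Among 34 TGF-β targets, 30 rose and 1 fell of 34 tested, with a median log2 fold change of 1.65 (32 and 1, median 1.83, after scaling), with IGFBP3 (-1.12) as the fall. Of ligands, receptors and SMADs, 12 rose and 6 fell of 24 tested, with a median log2 fold change of 0.21 (15 and 4, median 0.38, after scaling). THBS1, which activates the latent cytokine, held 52.5, 47.0 and 42.7 FPKM in treated cells, against 10.5, 7.35 and 7.67 FPKM in control, and the feedback gene PMEPA1 averaged 253 ± 9.23 FPKM in treated cells and 52.1 ± 4.48 FPKM in control. The receptor TGFBR2 (0.03) did not pass the test, and SMAD3 (-0.68), which carries the signal, fell. Of the 18 tested matrix genes that the study chose from these libraries all 18 rose, a direction that is not independent evidence. Several of them are also in the lists of TGF-β targets, collagen chains, matrix glycoproteins and laminins. The counts and medians of those lists are thus not independent of that choice. Matrix glycoproteins and proteoglycans gave 13 rises and 7 falls among 24 tested and a median log2 fold change of 0.38 (16 and 5, median 0.56, after scaling). SPARC (1.67), a matrix protein that binds collagen, and CD44 (1.02), the receptor of hyaluronan, were among the rises, and HAS2 (-2.11), a hyaluronan synthase, among the falls, while HAS3 (1.16), another such enzyme, rose. Collagen chains gave 13 rises and 1 fall among 16 tested and a median log2 fold change of 1.09 (14 and 0, median 1.27, after scaling), with COL7A1, the anchoring fibril of the skin, at 244 ± 25.9 FPKM in treated cells and 101 ± 5.98 FPKM in control, and the enzymes that modify collagen gave 11 rises and 1 fall among 18 tested and a median log2 fold change of 0.20 (12 and 1, median 0.38, after scaling). The fibroblast markers summed to 2.19 to 3.99 FPKM in treated cells, against 13.2 to 16.3 FPKM in control, and the part of other cells in the matrix genes was not tested.

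The ID genes, which BMP signaling switches on, fell. In the list of ID genes and BMP pathway 6 rose and 11 fell of 21 tested, with a median log2 fold change of -0.28 (6 and 7, median -0.10, after scaling). The ID genes encode partners that keep helix-loop-helix factors off DNA, and all 4 fell. ID1 held 65.4, 55.9 and 66.2 FPKM in treated cells, against 408, 367 and 328 FPKM in control, ID2 held 4.20, 4.18 and 3.52 FPKM in treated cells, against 42.4, 48.8 and 49.2 FPKM in control, and ID3 held 78.2, 86.3 and 98.9 FPKM in treated cells, against 393, 387 and 363 FPKM in control. ID4, on chromosome 6 from 19837386 to 19840684, held 0.80, 0.89 and 0.68 FPKM in treated cells, against 15.6, 14.2 and 14.4 FPKM in control (log2 fold change -4.06, SE 0.15, adjusted p = 6.06e-08). No treated library reached a control library in any of them, and 65.4% of all genes tested had no overlap in 1 direction or the other. FST and FSTL3, which bind and block activins, rose. FST held 27.7, 21.1 and 28.2 FPKM in treated cells, against 4.79, 3.41 and 3.89 FPKM in control (log2 fold change 2.64, SE 0.15, adjusted p = 7.57e-07), and FSTL3 averaged 51.9 ± 2.85 FPKM in treated cells and 9.96 ± 0.715 FPKM in control. The inhibitory SMAD6 fell (-1.44).

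More proteases of the matrix and inhibitors of them rose than fell. Metalloproteinases and inhibitors gave 13 rises and 4 falls among 22 tested and a median log2 fold change of 0.90 (15 and 3, median 1.08, after scaling). MMP10, stromelysin 2, held 764, 776 and 784 FPKM in treated cells, against 62.3, 66.3 and 66.4 FPKM in control (log2 fold change 3.57, SE 0.05, adjusted p = 6.07e-11), and the collagenase MMP1 held 551, 542 and 553 FPKM in treated cells, against 125, 125 and 120.2 FPKM in control (log2 fold change 2.15, SE 0.04, adjusted p = 2.24e-09). The inhibitors TIMP2 (2.59) and TIMP3 (1.63) rose with them, and the elastase MMP12 fell (-2.15). In the plasminogen system 7 rose and 2 fell of 9 tested, with a median log2 fold change of 0.49 (7 and 1, median 0.67, after scaling). PLAUR, the receptor of urokinase, held 24.8, 27.2 and 27.7 FPKM in treated cells, against 6.80, 7.37 and 6.79 FPKM in control, while its ligand PLAU changed by 0.29 on the log2 scale. Of YAP targets 4 rose and 2 fell of 15 tested, with a median log2 fold change of 0.03 (6 and 0, median 0.20, after scaling), and F3 (1.42), tissue factor, rose most. In the list of the mesenchymal transition 8 rose and 4 fell of 17 tested, with a median log2 fold change of 0.08 (10 and 4, median 0.26, after scaling). CDH2, N-cadherin, averaged 11 ± 1.17 FPKM in treated cells and 3.16 ± 0.0306 FPKM in control, CDH1, E-cadherin, averaged 128 ± 9.37 FPKM in treated cells and 93.2 ± 3.89 FPKM in control, and both rose. VIM, vimentin, was at 0.08, 0.05 and 0.12 FPKM in treated cells and listed at 0 in all 3 control libraries, and ZEB1 stayed below 0.1 FPKM.

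Genes of growth factor signaling were mixed. In the EGFR list 3 rose and 6 fell of 12 tested, with a median log2 fold change of -0.16 (4 and 5, median 0.02, after scaling). AREG, amphiregulin, held 26.9, 25.8 and 31.2 FPKM in treated cells, against 3.86, 4.57 and 4.5 FPKM in control (log2 fold change 2.67, SE 0.11, adjusted p = 1.02e-07), while EGFR (-0.47) and ERBB3 (-1.01), its receptor and a relative, fell. Genes switched on by ERK and feeding back on it gave 11 rises and 1 fall among 17 tested and a median log2 fold change of 0.49 (15 and 1, median 0.67, after scaling), led by IER3 with 109.8, 115 and 138 FPKM in treated cells, against 21.8, 24.6 and 26.1 FPKM in control. AP-1 subunits gave 5 rises and 1 fall among 11 tested and a median log2 fold change of 0.24 (8 and 1, median 0.42, after scaling). JUN held 56.0, 53 and 64.7 FPKM in treated cells, against 6.70, 7.92 and 7.36 FPKM in control (log2 fold change 2.96, SE 0.10, adjusted p = 2.84e-08), FOS averaged 19.4 ± 0.442 FPKM in treated cells and 8.73 ± 0.937 FPKM in control, and FOSB fell (-0.96). ODC1, ornithine decarboxylase, the first enzyme of polyamine synthesis, held 60.3, 60.5 and 61.2 FPKM in treated cells, against 7.05, 8.12 and 7.76 FPKM in control (log2 fold change 2.97, SE 0.07, adjusted p = 7.61e-09), while of the polyamine genes 2 rose and 2 fell of 10 tested, with a median log2 fold change of 0.04 (6 and 0, median 0.22, after scaling). Notch genes gave 5 rises and 5 falls among 14 tested and a median log2 fold change of 0.17 (7 and 3, median 0.35, after scaling), with JAG1 (0.69) up and NOTCH1 (-1.03) down. Of the Wnt genes, 14 rose and 5 fell of 20 tested. Their median log2 fold change was 0.61 (14 and 4, median 0.79, after scaling). WNT7A (1.57), SFRP1 (1.77) and DACT1 (3.02) rose, and DKK1 (-2.21) fell. The direct Wnt target AXIN2 was below 0.3 FPKM in both groups.

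Transcription factors of epithelial identity changed in both directions, with 6 rises and 11 falls among 22 tested and a median log2 fold change of -0.27 (7 and 9, median -0.09, after scaling), where 17.7% of all genes rose and 41.9% fell. ELF3 held 14.1, 14.6 and 12.3 FPKM in treated cells, against 80.2, 74.0 and 80.0 FPKM in control (log2 fold change -2.51, SE 0.08, adjusted p = 2.15e-08), and GATA3 (-1.43) and GRHL3 (-2.12) fell, while MAF (1.54) and TP63 (1.33) rose. In the retinoid list 4 rose and 7 fell of 18 tested, with a median log2 fold change of -0.07 (7 and 7, median 0.11, after scaling), so that its median changed sign with scaling. RARB, a retinoic acid receptor that is itself a target of retinoic acid, held 0.30, 0.23 and 0.13 FPKM in treated cells, against 6.04, 5.84 and 5.78 FPKM in control (log2 fold change -4.26, SE 0.27, adjusted p = 1.36e-06), STRA6, the retinol importer, averaged 5.07 ± 0.555 FPKM in treated cells and 21.5 ± 1.25 FPKM in control, and DHRS3, which turns retinal back to retinol, averaged 44.7 ± 2.62 FPKM in treated cells and 109.7 ± 1.72 FPKM in control. RDH16, which oxidizes retinol, rose to 11.9, 13.2 and 13.9 FPKM in treated cells, against 0.80, 0.88 and 0.90 FPKM in control. In the list of the aryl hydrocarbon receptor and its targets 4 rose and 2 fell of 6 tested, with a median log2 fold change of 0.48 (4 and 1, median 0.66, after scaling). CYP1B1 rose (1.02) and ALDH3A1 fell (-1.28).

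Core machinery moved by small amounts, and its direction often turned with scaling. Genes of glycolysis and hypoxia gave 16 rises and 4 falls among 27 tested and a median log2 fold change of 0.23 (20 and 2, median 0.41, after scaling), with CA12, a carbonic anhydrase, at 15.2 ± 0.461 FPKM in treated cells and 2.48 ± 0.210 FPKM in control, the glucose carrier SLC2A1 at 197 ± 8.32 FPKM in treated cells and 99.1 ± 6.02 FPKM in control, and VEGFA, the angiogenic factor, fallen (-0.47). Subunits of the respiratory chain encoded in the nucleus gave 1 rise and 24 falls among 38 tested and a median log2 fold change of -0.27 (6 and 15, median -0.09, after scaling). CYC1, cytochrome c1, held 75.4, 84.8 and 87.9 FPKM in treated cells, against 136, 143 and 134 FPKM in control (log2 fold change -0.73, SE 0.06, adjusted p = 1.16e-05). Ribosomal proteins gave 10 rises and 1 fall among 52 tested and a median log2 fold change of 0.07 (35 and 0, median 0.25, after scaling), the proteasome gave 1 rise and 12 falls among 31 tested and a median log2 fold change of -0.09 (10 and 5, median 0.09, after scaling), the lysosome and proton pump gave 6 rises and 21 falls among 42 tested and a median log2 fold change of -0.16 (15 and 16, median 0.02, after scaling), and autophagy gave 3 rises and 9 falls among 18 tested and a median log2 fold change of -0.15 (6 and 5, median 0.02, after scaling). In the last 3 lists the median changed sign with scaling. Of all genes 17.7% rose and 41.9% fell as deposited, with a median of -0.19, and the lysosome and autophagy lists lay near these values. Besides ATP6V1B1, the largest lysosomal fall was that of the protease gene CTSS, with 4.32, 6.18 and 5.95 FPKM in treated cells, against 19.3, 28.3 and 26.0 FPKM in control. Factors of ribosome assembly gave 2 rises and 16 falls among 30 tested and a median log2 fold change of -0.25 (4 and 8, median -0.07, after scaling), with NOP2 (-0.90) and UTP20 (-0.85) lowest. The BCL2 family and death receptors gave 4 rises and 14 falls among 26 tested and a median log2 fold change of -0.28 (8 and 9, median -0.10, after scaling). BMF, which promotes death when cells detach, rose (1.07), and TNFSF10, the death ligand TRAIL, held 147, 149.5 and 149.8 FPKM in treated cells, against 334, 329.9 and 341 FPKM in control. Of the genes often taken as constant references, 4 rose and 6 fell of 14 tested, with a median log2 fold change of -0.12 (6 and 4, median 0.06, after scaling), and ACTB and GAPDH (0.39) rose while SDHA (-0.49) and TFRC fell.

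**Figure D4:**
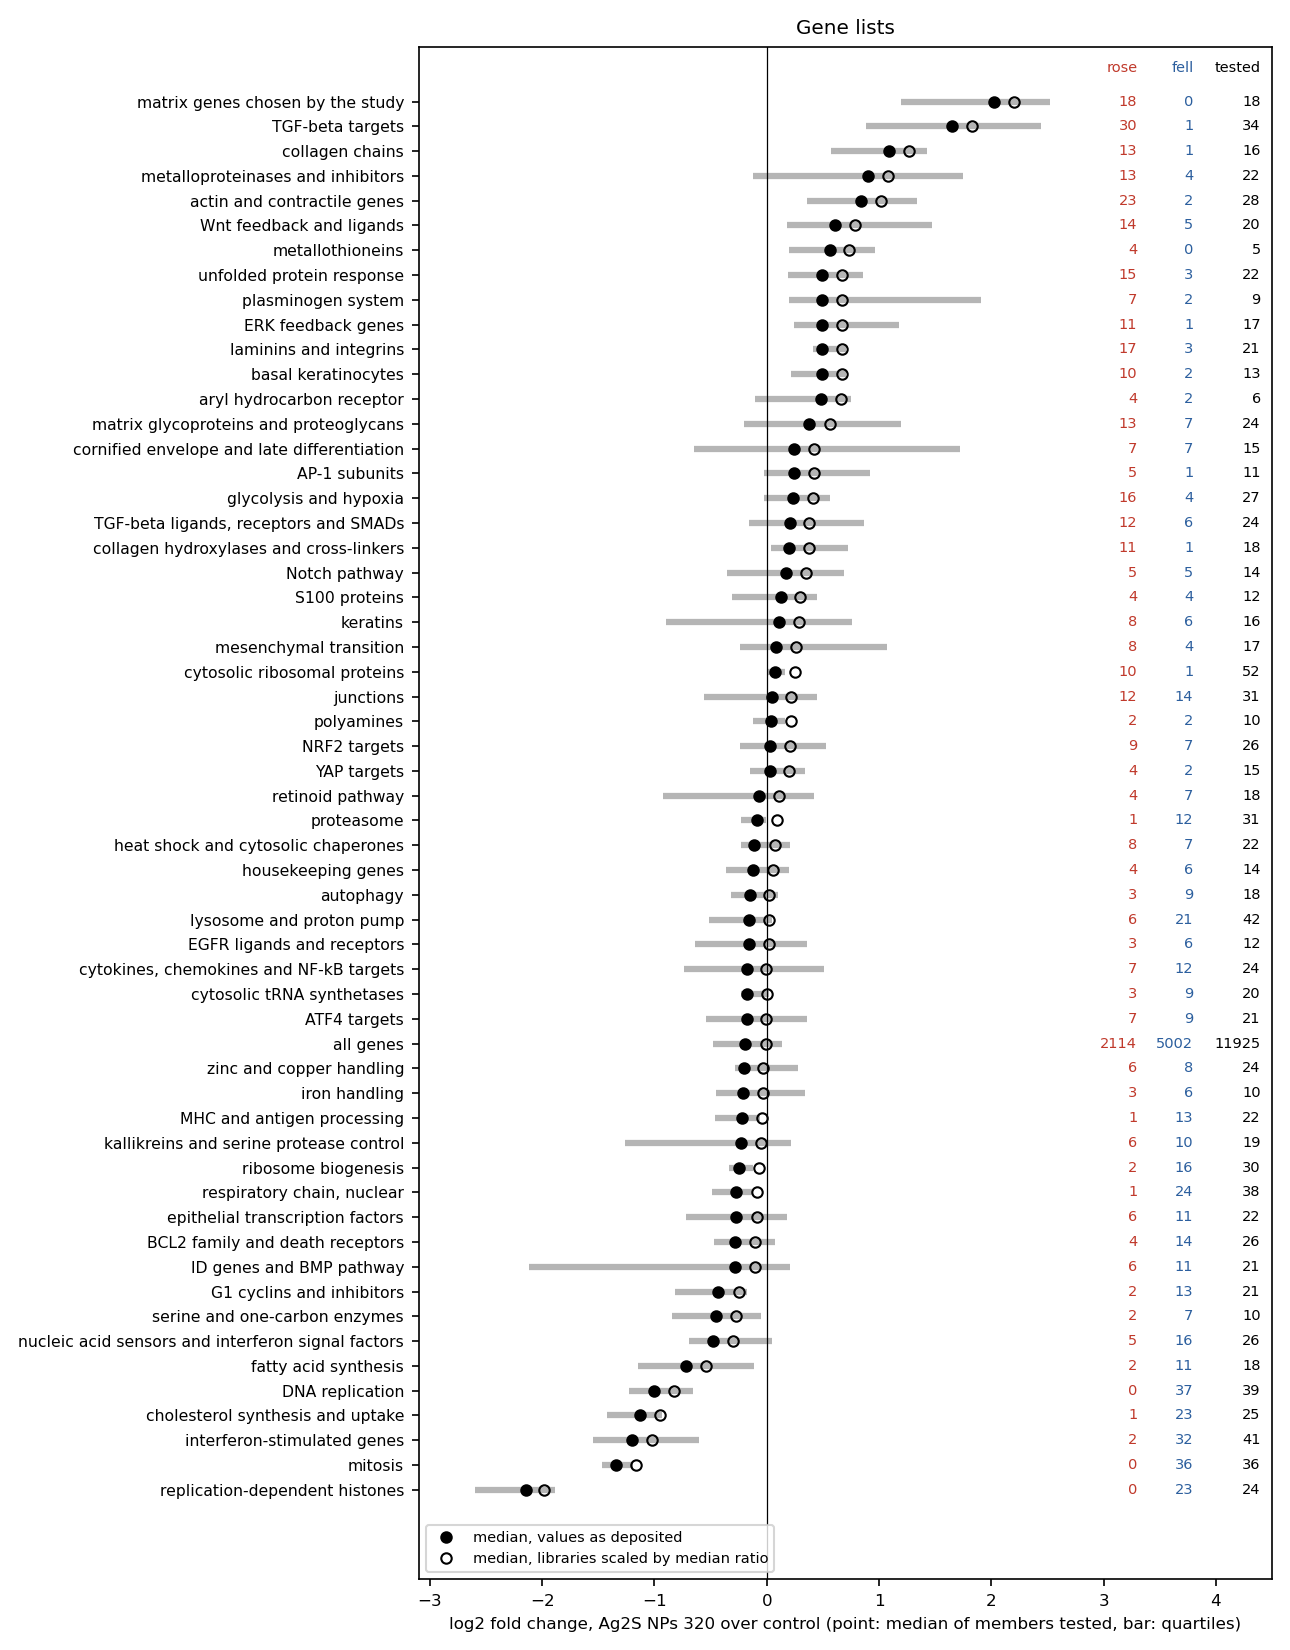
Each row is a list of genes, with the median log2 fold change of Ag2S NPs 320 over control of its tested members as deposited (filled) and after scaling (open), a bar from the lower to the upper quartile as deposited, and the counts of members that rose, fell and were tested. The 36 genes of mitosis had a median of -1.34 and the 34 TGF-β targets a median of 1.65, against -0.19 for all genes.

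The dose of 320 μg/mL differed from that of 160 μg/mL in fewer genes than it differed from control. In 1 fit of all 15 libraries, 1497 of 11952 genes (12.5%) differed between the doses, and 5951 differed between 320 μg/mL and control. Of the 1497 genes, 579 were higher (4.84%) and 918 lower (7.68%) at 320 μg/mL, or 776 and 644 after scaling. The count of 1497 fell to 934 without replicate 7 of Ag2S NPs 320, to 926 without replicate 8 and to 963 without replicate 9. Of the 36 genes of mitosis 33 were lower and 0 higher at 320 μg/mL (median log2 difference -0.66, or 33 and 0, median -0.62, after scaling). Of the 39 replication genes 7 were lower and 0 higher (median log2 difference -0.22, or 5 and 0, median -0.18, after scaling). TOP2A, which untangles DNA in mitosis, averaged 83.2 ± 2.24 FPKM in control, 53.8 ± 5.40 FPKM at 160 μg/mL and 30.4 ± 2.92 FPKM at 320 μg/mL (log2 difference -0.82, SE 0.10, adjusted p = 0.000109, all such differences being 320 minus 160 μg/mL on the log2 scale). Of the 22 genes of the unfolded protein response 12 were higher and 0 lower at 320 μg/mL (median log2 difference 0.36, or 13 and 0, median 0.40, after scaling). HSPA5 averaged 122 ± 1.26, 180.0 ± 1.30 and 297 ± 10.5 FPKM in the same order (log2 difference 0.72, SE 0.06, adjusted p = 1.52e-06). Of the 34 TGF-β targets 16 were higher and 0 lower at 320 μg/mL (median log2 difference 0.45, or 17 and 0, median 0.49, after scaling). Of the 25 cholesterol genes 17 were lower and 0 higher (median log2 difference -0.49, or 17 and 0, median -0.45, after scaling).

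Among single genes, L1CAM averaged 0.373 ± 0.159 FPKM in control, 1.48 ± 0.0208 FPKM at 160 μg/mL and 10.6 ± 1.11 FPKM at 320 μg/mL (log2 difference 2.76, SE 0.18, adjusted p = 2.55e-07). TNC averaged 1.73 ± 0.694, 18.1 ± 3.83 and 68.4 ± 3.87 FPKM in the same order (log2 difference 1.93, SE 0.19, adjusted p = 1.13e-05), and FASN averaged 348 ± 28.3, 153 ± 10.0 and 55.8 ± 5.32 FPKM (log2 difference -1.46, SE 0.14, adjusted p = 8.09e-06). Other genes had most of their difference from control at the lower dose already. ID1 averaged 368 ± 40.2, 75.2 ± 7.60 and 62.5 ± 5.74 FPKM (log2 difference -0.27, SE 0.15, adjusted p = 0.279), and MMP9 averaged 1.1 ± 0.0361, 11.1 ± 0.636 and 10.9 ± 1.68 FPKM (log2 difference -0.03, SE 0.14, adjusted p = 0.925). Neither of these differences between doses passed the test, which does not show that the doses acted alike. In further genes the mean at 160 μg/mL lay above that of control and the mean at 320 μg/mL below it. Among them were PGD, AKR1C1, AKR1C2, S100A9, MMP7 and ALDH3A1. MMP7, matrilysin, averaged 6.22 ± 0.663, 8.73 ± 1.98 and 3.33 ± 0.713 FPKM (log2 difference -1.36, SE 0.34, adjusted p = 0.0153), and the aldehyde dehydrogenase gene ALDH3A1 averaged 60.0 ± 2.09, 65.0 ± 4.25 and 24.6 ± 2.44 FPKM (log2 difference -1.40, SE 0.12, adjusted p = 3.64e-06). The genes DHRS2, SRPX and KRT16P6, the last a keratin pseudogene that can take reads of KRT16, were among the 6 largest differences toward the higher dose, and CENPW, a protein of the centromere, and HIST1H4H among the 6 toward the lower dose.

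**Figure D5:**
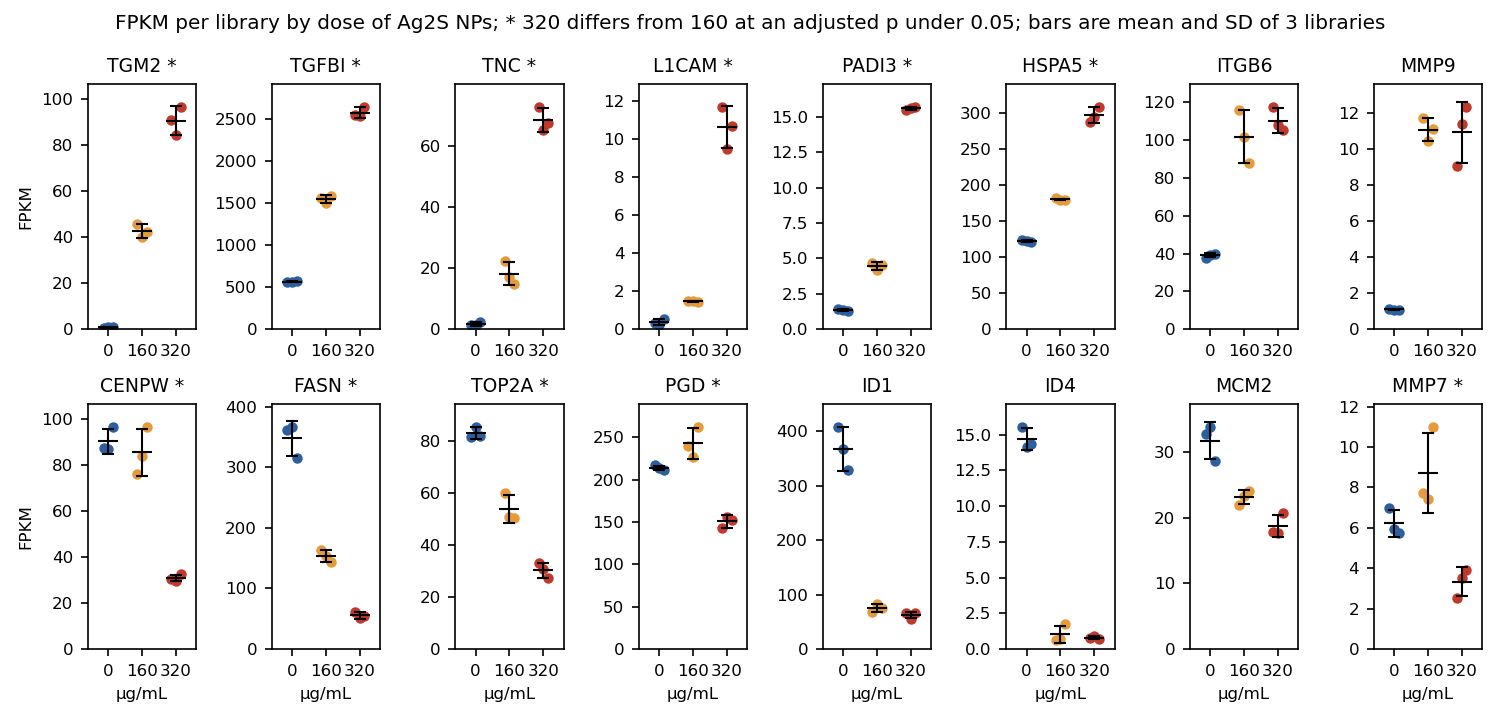
FPKM per library of 16 genes in control (0, blue), with Ag2S NPs at 160 μg/mL (orange) and with Ag2S NPs at 320 μg/mL (red), with the mean and SD of 3 libraries as bars. Stars mark genes that differed between 320 and 160 μg/mL, such as TNC at 68.4 and 18.1 FPKM, while ID1 at 62.5 and 75.2 FPKM has none.

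Against Li-doped Ag2S NPs at the same dose, 2921 of 11952 genes (24.4%) differed, of which 1835 were higher (15.4%) and 1086 lower (9.09%) with the undoped particle, or 1351 and 1396 after scaling. The count was 1654 without replicate 7 of Ag2S NPs 320 and 1758 without replicate 15 of Li-doped Ag2S NPs 320. Of the 22 genes of the unfolded protein response 11 were higher with Ag2S NPs 320 than with Li-doped Ag2S NPs 320 and 0 were lower (median log2 difference 0.27, or 10 and 0, median 0.19, after scaling). Of the 36 genes of mitosis 19 were higher and 2 lower (median log2 difference 0.43, or 17 and 2, median 0.35, after scaling). Of the 34 TGF-β targets 18 were higher and 1 lower (median log2 difference 0.46, or 17 and 2, median 0.38, after scaling). HSPA5 averaged 297 ± 10.5 FPKM with Ag2S NPs 320 and 180.2 ± 12.1 FPKM with Li-doped Ag2S NPs 320 (log2 difference 0.72, SE 0.06, adjusted p = 8.63e-07, all such differences being undoped minus doped on the log2 scale). MT1X averaged 699.6 ± 38 and 316 ± 22.6 FPKM in that order (log2 difference 1.15, SE 0.08, adjusted p = 3.89e-07), and MT2A averaged 1359.6 ± 101 and 883 ± 29.4 FPKM (log2 difference 0.62, SE 0.11, adjusted p = 0.00132). KRT14, KRT16 and KRT17 stood on the other side. KRT17 averaged 4862 ± 413 FPKM with Ag2S NPs 320 and 8567 ± 1733 FPKM with Li-doped Ag2S NPs 320 (log2 difference -0.80, SE 0.13, adjusted p = 0.000439), and KRT14 averaged 6197 ± 663 and 11877 ± 1939 FPKM (log2 difference -0.93, SE 0.12, adjusted p = 9.96e-05). The largest differences toward the undoped particle included STRA6 (log2 difference 3.04), PADI3 (2.01) and ELF3 (1.93), and those toward the doped particle included ASPG (-3.26), CHAC1 (-2.52), a target of ATF4 that degrades glutathione, and KRT1 (-2.17). COL1A1 averaged 40.5 ± 2.02 FPKM with Ag2S NPs 320 and 36.0 ± 3.76 FPKM with Li-doped Ag2S NPs 320 (log2 difference 0.17, SE 0.13, adjusted p = 0.359), a difference that did not pass the test.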

How the data were processed

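The 15 libraries of HaCaT RNA were made with a TruSeq kit and read as 150-base pairs. The submitters' processing notes name TopHat, Cufflinks (version 2.1.1) and Cuffdiff, without their roles. Per the study's methods, the authors ran Cuffdiff with corrections for reads that map to several places and for fragment bias, and the deposited values are FPKM per gene. The genome build is not given in the sources used here, and the number of fragments per library is unknown. The authors' own comparisons (log2 ratios, p-values and q-values), which the tables also hold, and the values per transcript were left out.

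The 6 libraries were fitted with limma (version 3.58.1 in R 4.3.3, trended variance) on log2(FPKM + 0.1), over genes with a mean of at least 1 FPKM, with p-values adjusted over all of them (Benjamini and Hochberg). Differences from Ag2S NPs 160 and from Li-doped Ag2S NPs 320 came from 1 fit of all 15 libraries, over the 17214 genes found in both tables of 9 libraries. Of the 17246 genes of the table of 6 libraries, 17245 were also in the table of 9 libraries at that dose, with identical values. Library values were compared as deposited and after dividing by each library's median ratio. The limma fit was tested on simulated data.

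Genes were named by a rule: TGFB1, TIMP1 and COL1A1, the 15 largest log2 changes each way among called genes with at least 5 FPKM and no overlap, the 12 largest gains and losses of FPKM, the most changed, most abundant or largest uncalled members of each list (all of a list of up to 12), and the 6 largest differences each way by dose and by particle. AXIN2, CCNB2, DNAJB1, HAS3, IFIT1, ITGA6, MTF1, PDIA4, PLK1, PYURF, SPINK5, SREBF2, TGFBR2, TIMP3, TOP2A, TXNRD1, VIM and ZEB1 fall outside it and were chosen after their values were seen. Some genes and lists are not reported here. The lists were chosen with earlier results of these data known. All 17246 gene identifiers are in GENCODE release 29, which gave gene coordinates (GRCh38). Promoters came from RefSeq (GRCh38.p14, first listed window of each gene), 250 bases before to 50 after the start site. Alternatives were another added constant, another filter, scaling, other sets of libraries, robust variance and leaving out each library.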

Additional observations from a re-analysis of the deposited data

How the results depend on the processing

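The count of 7116 changed genes lay between 5951 and 7302 over the alternatives, and between 6259 and 6862 when 1 library was left out. Genes changed more than 2-fold numbered 796 when a mean of at least 5 FPKM was required, against 1324, a filter that tests fewer genes, 950 with a constant of 1, 1907 without a filter, and between 1288 and 1385 with 1 library left out. Genes that differed from Ag2S NPs 160 numbered between 926 and 1260 with 1 library left out, against 1497, and 1032 in a fit of the 6 libraries compared. Genes that differed from Li-doped Ag2S NPs 320 numbered between 1654 and 3168 with 1 library left out, against 2921, and 2117 in such a fit. The cause of the lower counts was not tested. Of the 250 named genes tested, 237 were called, and none turned its direction while called. Scaling ended 6 of these calls, the fit of 9 libraries 3, the fit of 15 libraries 7, and leaving out 1 library at most 2. No paired analysis was possible because the groups share no replicate numbers. The depth behind the FPKM values is unknown, so no counting error could be set on low genes such as OLFM4, MT1G or L1CAM, and 3 libraries a group limit the precision.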
